A study of Homo sapiens with 2 samples.

Results

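The ERBB family is the set of 4 receptors that let breast epithelial cells sense EGF-like growth factors, and here it was followed in T47D mammospheres through 9 genes chosen by symbol out of 46732 listed genes. The 9 were the receptor genes EGFR, ERBB2, ERBB3 and ERBB4, the ligand genes EGF, AREG, TGFA and HBEGF, and ERRFI1, which encodes an intracellular inhibitor of the receptors. All 9 had at least 100 estimated counts in at least 1 library, as did 13722 of all genes. T47D is an established human breast cancer line of luminal type that carries the estrogen receptor, and mammospheres are clusters grown in suspension on non-adherent plates. One library came from CIC knockdown mammospheres and the other from control mammospheres, both collected after 7 days of primary and 7 days of secondary culture in the same medium. The labels state neither how CIC was knocked down nor whether a column pools the duplicates mentioned in the design text.

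ERBB receptors work as pairs. A ligand bound to one receptor lets it pair with another, the kinase of one partner phosphorylates the tail of the other, and the tail then recruits adaptors that feed the Ras-ERK and PI3K-AKT pathways. ERBB2 has no known ligand and is the favoured partner, whereas ERBB3 has a nearly inactive kinase and signals through PI3K when paired. CIC (capicua) is a DNA-binding repressor downstream of this system: ERK signalling inactivates it, which releases its targets.

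Estimated counts totalled 68420805 in the library labelled CIC knockdown and 47099221 in the control library. CIC itself had 872 counts under the knockdown label and 607 in control, a ratio of 0.98 (95% counting interval 0.882 to 1.09), so CIC mRNA was not lower where the label says knockdown, and each library is called by its label. In the values that follow, "under the knockdown label" means in the library labelled CIC knockdown, and "in control" means in the control library. Every ratio is the library labelled CIC knockdown over control, on library sizes scaled by TMM factors, and its interval covers counting error only. With 1 library per group there was no replicate spread, no test and no p-value, so each statement describes these 2 libraries. All 10 luminal markers were detected, 3 of them higher and 5 lower by interval. Among all genes with at least 100 counts, 33.8% were higher and 27.3% lower by the same rule. KRT8 stood at 2910 TPM under the knockdown label and 2950 TPM in control. ESR1 stood at 65.3 TPM under the knockdown label and 65.7 TPM in control. One of the 10 passed 2-fold, the progesterone receptor gene PGR, with 4.95 TPM under the knockdown label and 2.29 TPM in control, a ratio of 2.07 (1.94 to 2.22). The basal keratins KRT5 and KRT14, the leukocyte markers PTPRC, CD3E and MS4A1, the endothelial markers TEK and CLDN5, and 4 of 8 fibroblast markers (COL1A2, PDGFRB, FAP and THY1) had 0 counts in both. The fibroblast list summed to 26.0 TPM under the knockdown label and 14.1 TPM in control, and its part in any ratio below was not tested. Most of that sum was COL3A1, with 23.1 TPM under the knockdown label and 9.38 TPM in control, while LUM went the other way, with 2.44 TPM under the knockdown label and 4.44 TPM in control. In such bulk RNA, fewer cells of a type and less RNA per cell cannot be told apart. Summed levels of the other marker lists were 7.65 TPM under the knockdown label and 9.32 TPM in control for basal cells, 1.49 TPM under the knockdown label and 1.15 TPM in control for leukocytes, and 0.155 TPM under the knockdown label and 0.074 TPM in control for endothelium.

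The receptor mix was dominated by ERBB3 in both libraries, and the receptor sum was nearly equal by annotated transcripts alone. The 4 receptor genes summed to 107 TPM in the library labelled CIC knockdown and 106 TPM in control. With assembled transcripts included, the sum was not equal, at 101.8 TPM under the knockdown label and 115.5 TPM in control. TPM is a level per transcript length, scaled to a fixed sum per library, and permits comparison between genes. ERBB3 made up 70.4% of the receptor TPM in the library labelled CIC knockdown and 69.7% in control. ERBB2 made up 19.0% under the knockdown label and 19.5% in control, ERBB4 9.12% under the knockdown label and 9.82% in control, and EGFR 1.51% under the knockdown label and 1.01% in control. These shares include short transcripts. For ERBB3, a transcript of 1050 bases gave 11.5 TPM under the knockdown label and 14.0 TPM in control. For EGFR, a transcript of 1572 bases gave 0.918 TPM under the knockdown label and 0.246 TPM in control. The 4 ligand genes summed to 14.6 TPM under the knockdown label and 12.7 TPM in control. TGFA held 64.7% of that sum under the knockdown label and 62.4% in control, and AREG 20.1% under the knockdown label and 25.8% in control. HBEGF held 7.6% under the knockdown label and 8.81% in control, and EGF 7.67% under the knockdown label and 2.92% in control.

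**Figure D1:**
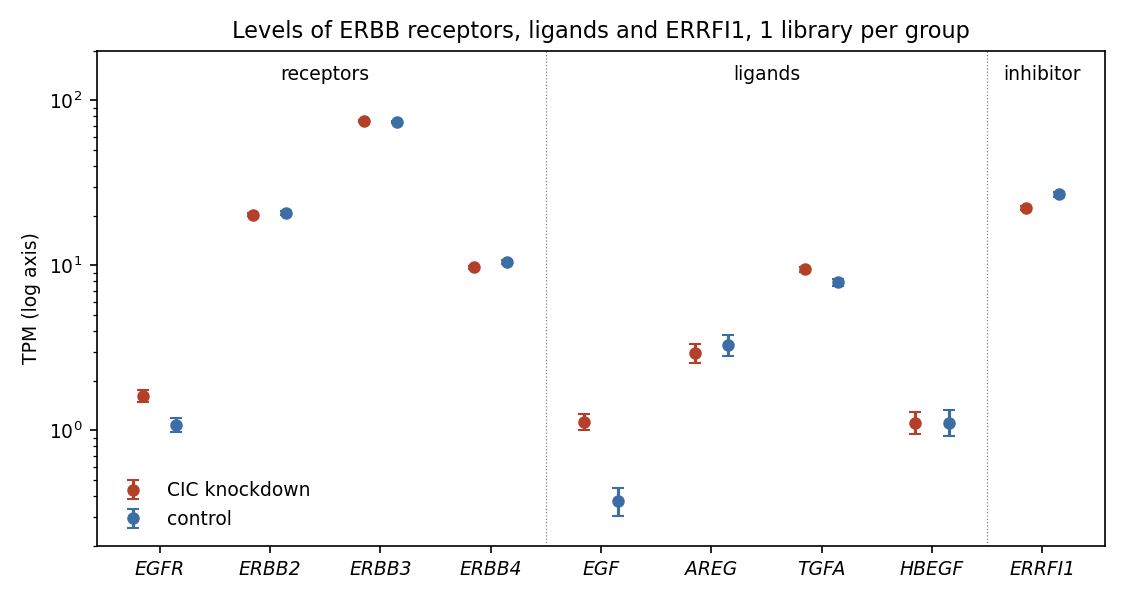
Level of each gene in TPM (log axis) in the library labelled CIC knockdown (red) and the control library (blue), 1 library per group; bars are exact Poisson 95% intervals of the estimated count, scaled to TPM. The receptor ERBB3 stands highest at 75.3 TPM under the knockdown label and 74.2 TPM in control, and EGF is the member whose levels lie farthest apart, at 1.12 TPM under the knockdown label and 0.371 TPM in control.

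Ordered by level in the library labelled CIC knockdown, the genes ran ERBB3 (75.3 TPM), ERRFI1 (22.3 TPM), ERBB2 (20.3 TPM), ERBB4 (9.75 TPM), TGFA (9.47 TPM), AREG (2.94 TPM), EGFR (1.62 TPM), EGF (1.12 TPM) and HBEGF (1.11 TPM). Neighbouring levels whose counting intervals overlapped were those of ERBB4 and TGFA and those of EGF and HBEGF. In the control library the order was the same from ERBB3 down to AREG, followed by HBEGF (1.12 TPM), EGFR (1.08 TPM) and EGF (0.371 TPM), and only the intervals of HBEGF and EGFR overlapped. EGF was thus the lowest of the 9 in control and level with HBEGF in the library labelled CIC knockdown.

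Judged by counting intervals, 3 of the 9 genes stood above a ratio of 1 (EGF, TGFA and ERBB3), 2 stood below (ERBB4 and ERRFI1) and 4 overlapped a ratio of 1 (EGFR, ERBB2, AREG and HBEGF). Among all 13722 genes with at least 100 counts, 33.8% were higher and 27.3% lower by the same rule, so these counts are near the background and say nothing particular about the family. None of the 9 reached 2-fold, against 2.14% of all genes, although EGF stopped just short at 1.99 and passed it, at 2.01, with plain totals or with the table that includes assembled transcripts. The median log2 ratio was -0.04 over the 9 genes and 0.02 over all genes.

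**Figure D2:**
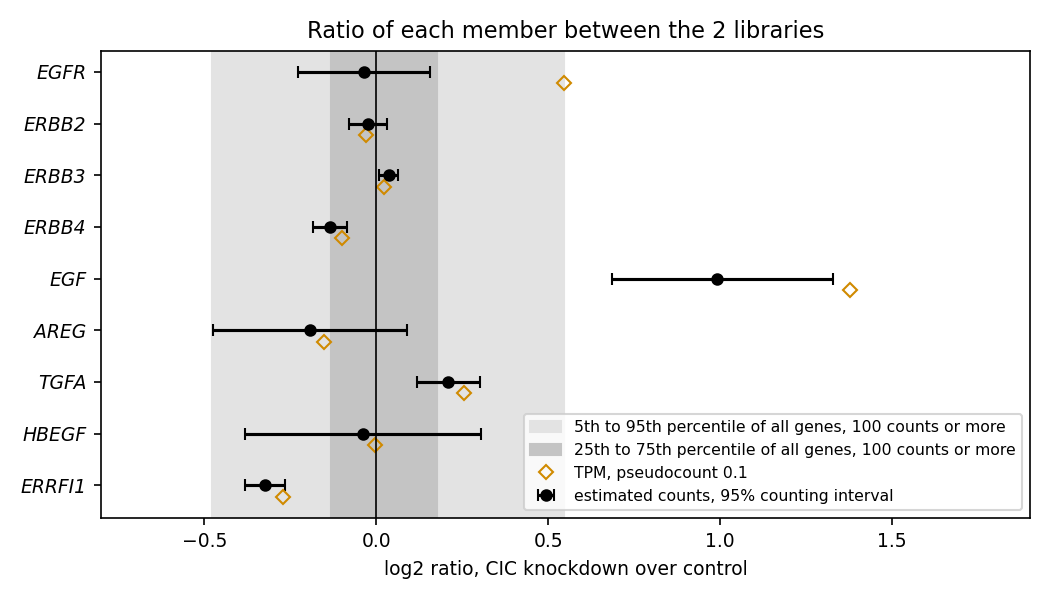
Log2 ratio of the library labelled CIC knockdown over control for each gene, from estimated counts with 95% counting intervals (black) and from TPM with a pseudocount of 0.1 (open diamonds); grey bands span the 25th to 75th and the 5th to 95th percentiles of the 13722 genes with at least 100 counts. EGF lies outside both bands, and EGFR is the gene whose 2 measures part most, at -0.04 from counts and 0.55 from TPM.

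EGF encodes the founding ligand of EGFR, made as a long membrane-spanning precursor (gene 1950, GRCh38 chromosome 4, 109912883 to 110013766). It had 323 counts in the library labelled CIC knockdown and 110 in control, a ratio of 1.99 (1.61 to 2.51). This ratio stood at the 98.8th percentile of all genes with at least 100 counts. In TPM the ratio was 3.03, with 1.12 TPM in the library labelled CIC knockdown and 0.371 TPM in control. Both values rest on few counts.

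The transcripts behind the EGF counts were not the same in the 2 libraries. Of 18 annotated transcripts, 3 had counts in the library labelled CIC knockdown and 1 in control. In control all 110 counts were given to NM_001963, the full-length variant of 6388 bases, which had 44 counts in the library labelled CIC knockdown, a ratio of 0.283 (0.188 to 0.39). The predicted variant XM_011531707, of 5257 bases, had 200 counts under the knockdown label and 0 in control, and XM_017007855, of 2641 bases, had 79 under the knockdown label and 0 in control. XM_017007855 ends at 109980086, short of the 3′ end of the full-length variant at 110013766. Against a floor of 3 counts in the library with none, the 2 predicted variants were 45.5-fold and 18.0-fold higher. Over the 2 long variants together, chosen after their values were seen, EGF had 244 counts under the knockdown label and 110 in control, giving a ratio of 1.51 (1.2 to 1.91). The count-weighted transcript length was 4771 bases in the library labelled CIC knockdown and 6388 in control, and a shorter length gives a higher TPM for the same count.

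The 250 bases upstream of the annotated EGF start are shown because EGF had the largest ratio of the 9 genes. This start, at 109912883, is that of NM_001963 and XM_017007855, whereas XM_011531707, with most of the counts under the knockdown label, starts downstream at 109913373. They come from RefSeq (GRCh38.p14, plus strand, chr4:109912633-109912882), and capitals mark the AP-1 element TGAGTCA, a site bound by FOS and JUN factors that act downstream of ERK.
EGF upstream: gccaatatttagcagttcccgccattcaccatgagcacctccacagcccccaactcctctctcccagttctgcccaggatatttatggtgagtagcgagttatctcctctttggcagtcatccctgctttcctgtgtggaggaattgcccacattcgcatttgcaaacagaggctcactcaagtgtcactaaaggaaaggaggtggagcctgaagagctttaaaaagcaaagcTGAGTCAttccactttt
The element begins 17 bases before the start at 109912883.

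TGFA encodes transforming growth factor alpha, another EGFR ligand that is cut from the cell surface (gene 7039, chromosome 2, 70447284 to 70553826). It had 2585 counts in the library labelled CIC knockdown and 1524 in control, a ratio of 1.16 (1.09 to 1.23), at the 78.8th percentile of all genes. Its levels were 9.47 TPM under the knockdown label and 7.91 TPM in control, the highest of the 4 ligands in both libraries. The gene total lay a little above an equal level, while 3 of its 4 transcripts differed far more.

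NM_003236, listed as variant 1, had 1333 counts under the knockdown label and 951 in control, a ratio of 0.956 (0.879 to 1.04). NM_001099691 had 1243 counts under the knockdown label and 176 in control, a ratio of 4.78 (4.11 to 5.67), and its share of TGFA counts was 48.1% under the knockdown label and 11.5% in control. These 2 variants start at 70553826 on the minus strand, and the other 2 at 70553446. From the start at 70553446, NM_001308158 had 9 counts under the knockdown label and 294 in control, a ratio of 0.0263 (0.00945 to 0.0402). NM_001308159 had 0 counts under the knockdown label and 103 in control, 50.3-fold lower against a floor of 3 counts. NM_003236 and NM_001099691 both have 6 exons, and exon 3 begins 3 bases later in NM_001099691. The junction is shown because NM_001099691, the TGFA transcript with the largest gain, differs there from NM_003236. Sequences are from the GENCODE transcripts on GRCh38, minus strand, with the 3 extra bases (chr2:70465734-70465736) in capitals.
NM_003236 junction: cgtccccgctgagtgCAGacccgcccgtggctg
NM_001099691 junction: cgtccccgctgagtgacccgcccgtggctg
Their lengths in the deposited table, 4117 and 4114 bases, differ by the same 3.

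For AREG and HBEGF no difference was detectable at this depth. AREG encodes amphiregulin, an EGFR ligand induced by estrogen in breast epithelium (gene 374, chromosome 4, 74445136 to 74455005). It had 241 counts in the library labelled CIC knockdown and 188 in control, a ratio of 0.875 (0.719 to 1.06), with 2.94 TPM under the knockdown label and 3.27 TPM in control. HBEGF encodes a heparin-binding ligand of EGFR and ERBB4 (gene 1839, chromosome 5, 140332843 to 140346603). Its 174 counts under the knockdown label and 122 in control gave a ratio of 0.973 (0.767 to 1.24), with 1.11 TPM under the knockdown label and 1.12 TPM in control. Each has a single annotated transcript, so no count could be divided within the gene. The HBEGF interval takes in the ratios of both TGFA and ERRFI1, and that of AREG takes in the ratio of ERRFI1.

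Among the receptors, EGFR was the lowest and the one whose answer depended on the unit. EGFR (gene 1956, chromosome 7, 55019017 to 55211628) had 545 counts in the library labelled CIC knockdown and 381 in control, a ratio of 0.976 (0.854 to 1.11). Its levels were 1.62 TPM under the knockdown label and 1.08 TPM in control, a ratio of 1.5. Counts thus put the libraries level and TPM put the one labelled CIC knockdown higher, at 0.55 on the log2 scale with a pseudocount of 0.1.

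The difference between the units went with the transcripts to which the reads were assigned. Full-length EGFR mRNA, NM_005228 of 9905 bases, had 0 counts in the library labelled CIC knockdown and 350 in control. Against a floor of 3 counts in the library with none, that was 171-fold lower. NM_001346900, of 9676 bases, had 449 counts under the knockdown label and 0 in control; it starts downstream at 55109839, and not at 55019017, and shares the 3′ end of the full-length mRNA. NM_201283, a short variant of 1572 bases that ends at 55156951, had 96 counts under the knockdown label and 18 in control, a ratio of 3.42 (2.18 to 6.4). It made up 0.918 of the 1.62 TPM in the library labelled CIC knockdown, against 0.246 of 1.08 TPM in control. The 2 long variants together, a sum chosen after the values were seen, had 449 counts under the knockdown label and 350 in control, giving a ratio of 0.876 (0.759 to 1.01).

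Both EGFR start regions are shown, since all control counts were assigned to transcripts of the upstream start and 82.4% of those in the library labelled CIC knockdown to the downstream one. Each is the 250 bases before a start in RefSeq (GRCh38.p14, plus strand), at chr7:55018767-55019016 and chr7:55109589-55109838, with the AP-1 element, read on either strand as TGAGTCA or TGACTCA, in capitals.
EGFR upstream start: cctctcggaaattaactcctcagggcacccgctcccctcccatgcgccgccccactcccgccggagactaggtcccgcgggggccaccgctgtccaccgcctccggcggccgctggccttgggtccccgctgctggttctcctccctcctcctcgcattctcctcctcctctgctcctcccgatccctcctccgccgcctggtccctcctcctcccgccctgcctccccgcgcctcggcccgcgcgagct
EGFR downstream start: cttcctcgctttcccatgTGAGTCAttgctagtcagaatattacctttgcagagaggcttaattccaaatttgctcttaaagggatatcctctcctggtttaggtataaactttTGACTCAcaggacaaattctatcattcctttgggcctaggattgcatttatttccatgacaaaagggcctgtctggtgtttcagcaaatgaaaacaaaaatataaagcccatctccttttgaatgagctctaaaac
The upstream region held 0 AP-1 elements and the downstream one 2. RefSeq start regions were found for 8 of the 9 genes, 10 regions in all. The AP-1 element was in 2 of the 10, searched on both strands, against 4.2% of 35116 regions of the same length. The CIC octamers TGAATGAA and TGAATGGA, searched on both strands, were in 0 of the 10, against 1.4% and 0.832% of all regions. A match is no more than these letters in this window, and the absence of one says nothing about CIC binding elsewhere.

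ERBB2 encodes the partner receptor HER2 (gene 2064, chromosome 17, 39688084 to 39728662). It had 6430 counts in the library labelled CIC knockdown and 4458 in control, a ratio of 0.984 (0.947 to 1.02), with 20.3 TPM under the knockdown label and 20.8 TPM in control. The ratio thus overlapped 1 within counting error. Its division among transcripts differed by 77.9%, taken as the sum of the gains in share over all transcripts. That stood at the 94.4th percentile of the 10429 genes with at least 100 counts and more than 1 detected transcript. XM_024450642 had 3253 counts under the knockdown label and 2 in control, a ratio of 613 (307 to 9164), whereas XM_024450643 had 0 under the knockdown label and 1335 in control, and XM_024450641 had 505 under the knockdown label and 2314 in control. The 5 transcripts that start between 39688084 and 39688145 held 62.2% of counts in the library labelled CIC knockdown and 35.7% in control, a ratio of scaled counts of 1.71 (1.62 to 1.82). The 4 that start between 39699978 and 39699992 held 37.8% under the knockdown label and 64.3% in control, a ratio of scaled counts of 0.579 (0.548 to 0.611). Transcripts went both ways within each group, as XM_024450642 and XM_024450643 did in the first. In the second, XM_024450641 was lower, but NR_110535 had 889 counts under the knockdown label and 333 in control, a ratio of 1.82 (1.6 to 2.07). NM_004448 had 569 counts under the knockdown label and 220 in control, and NM_001289937 had 470 under the knockdown label and 0 in control.

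Genes beside ERBB2 on chromosome 17 were split between higher and overlapping 1. Of 9 listed neighbours, 6 had at least 20 counts, and 2 of those 6 were higher and 0 lower by interval, where 29.8% and 25.3% of all genes with at least 20 counts were. MIEN1 stood at a ratio of 1.25 (1.12 to 1.4) with 10.0 TPM under the knockdown label and 7.79 TPM in control, and STARD3, a cholesterol transporter, at 1.18 (1.06 to 1.3) with 5.49 TPM under the knockdown label and 4.56 TPM in control. The adaptor gene GRB7 had 5.12 TPM under the knockdown label and 4.84 in control and CDK12, a transcription kinase, 2.99 TPM under the knockdown label and 3.06 TPM in control, both overlapping a ratio of 1, as did IKZF3 with 120 counts under the knockdown label and 72 in control. In TPM, ERBB2 was at 20.3 under the knockdown label and 20.8 in control, above each of these neighbours.

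ERBB3 was the most abundant of the 9 genes (gene 2065, chromosome 12, 56080025 to 56103507). It had 25131 counts in the library labelled CIC knockdown and 16720 in control, a ratio of 1.03 (1.01 to 1.05), with 75.3 TPM under the knockdown label and 74.2 TPM in control. That interval sits just above 1, and from halved counts, as would apply if each fragment was counted 2 times, it ran from 0.997 to 1.05. The full-length NM_001982 had 24330 counts under the knockdown label and 16038 in control. NM_001005915, a short variant of 1050 bases that encodes a secreted form, had 801 counts under the knockdown label and 682 in control, a ratio of 0.802 (0.722 to 0.888). It made up 11.5 of the 75.3 TPM under the knockdown label and 14.0 of the 74.2 TPM in control. The division between these annotated transcripts differed by 0.892%, at the 6.53rd percentile. In the table that includes assembled transcripts it did not hold, since an assembled ERBB3 variant took 70.5% of the counts under the knockdown label and 34.8% in control there.

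ERBB4, which binds neuregulins and some EGF-like ligands, was a little lower (gene 2066, chromosome 2, 211375717 to 212538802). Its 7718 counts in the library labelled CIC knockdown and 5779 in control gave a ratio of 0.911 (0.88 to 0.943), with 9.75 TPM under the knockdown label and 10.5 TPM in control. The ratio stood at the 24.7th percentile of all genes. All 11 annotated transcripts had counts in both libraries, from 141 to 1905 in the library labelled CIC knockdown and from 258 to 876 in control. XM_017003578 had 1905 counts under the knockdown label and 620 in control, a ratio of 2.09 (1.91 to 2.3), and XM_017003581 had 1600 under the knockdown label and 614 in control, a ratio of 1.78 (1.62 to 1.95). By contrast XM_006712364 had 452 counts under the knockdown label and 876 in control, a ratio of 0.353 (0.313 to 0.395), and XM_017003577 and XM_017003579 had ratios of 0.377 and 0.372.

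A pair of ERBB4 variants carry isoform names in the deposited table, JM-a/CVT-1 and JM-a/CVT-2. NM_005235 (JM-a/CVT-1) had 1143 counts in the library labelled CIC knockdown and 665 in control, a ratio of 1.17 (1.06 to 1.29). NM_001042599 (JM-a/CVT-2) had 141 under the knockdown label and 258 in control, a ratio of 0.377 (0.301 to 0.459). They differ inside the gene by exon 26 of 28, present in the first and skipped in the second, which encodes the cytoplasmic segment through which this ERBB4 form binds PI3K. That exon of 48 bases (GENCODE on GRCh38, minus strand, chr2:211387945-211387992) is shown because the 2 named isoforms part on it.
ERBB4 exon 26: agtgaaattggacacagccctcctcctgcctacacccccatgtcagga
The other 9 transcripts were not sorted by this exon, so no isoform ratio over the whole gene is given.

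**Figure D3:**
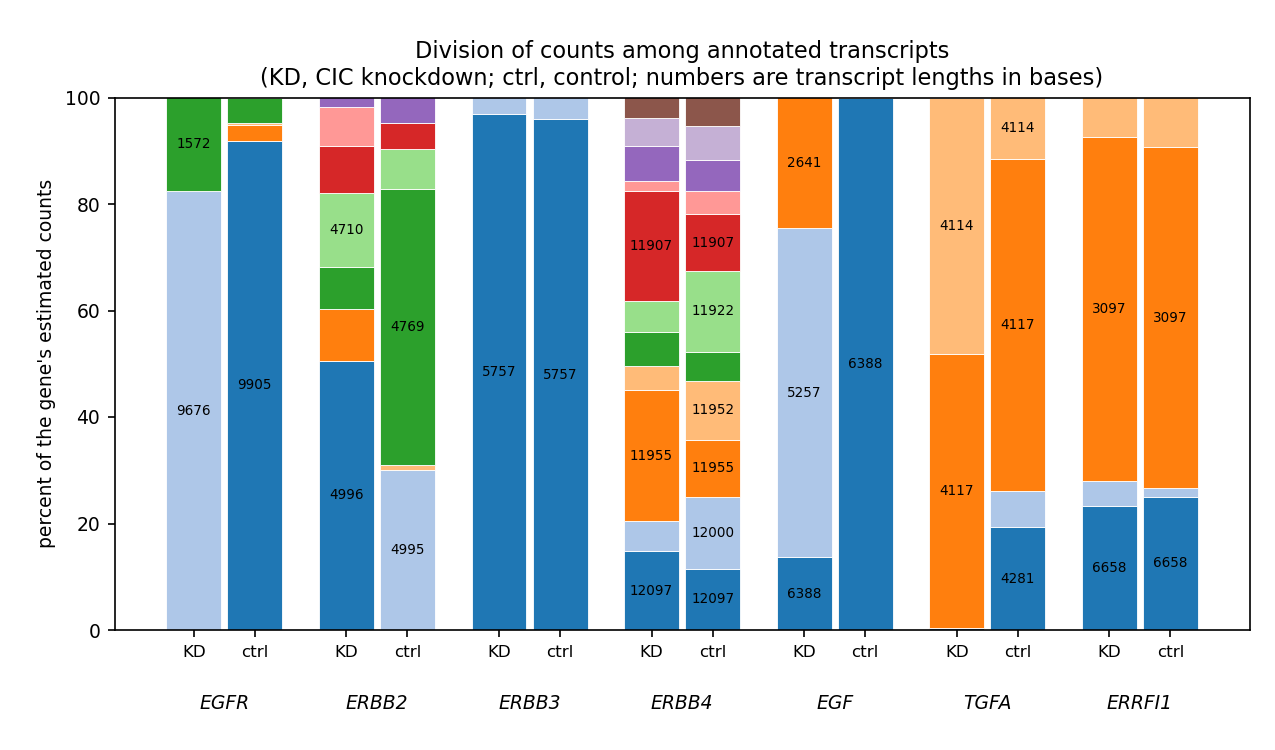
Percent of each gene's estimated counts assigned to each annotated transcript in the library labelled CIC knockdown (KD) and in control (ctrl); within a gene a colour is 1 transcript, and numbers inside bars are lengths in bases for transcripts with at least 10% in either library. EGFR, ERBB2 and EGF were assigned mostly to different transcripts in the 2 libraries, whereas ERBB3 and ERRFI1 were divided nearly alike among annotated transcripts, to which the plot is limited.

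Differences of this kind were frequent across the whole table. Among the 33 member transcripts with at least 100 counts, in genes with more than 1 detected transcript, 19 passed 2-fold with an interval off 1, 8 of them higher and 11 lower. The same held for 39.1% of 37600 transcripts of all genes. The difference in division among transcripts had a median of 16.4% over 10429 genes (quartiles 5.49% and 38.5%). EGFR at 95.3% and EGF at 86.4% stood at the 98.4th and 96.7th percentiles, TGFA at 36.5% and ERBB4 at 29.1% at the 73.4th and 66.9th, and ERRFI1 at 3.53% at the 18.4th. The counts of single transcripts are the authors' estimates, and their intervals leave out the error of dividing reads among transcripts that share most exons.

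ERRFI1 (MIG6) encodes a feedback inhibitor that binds the ERBB kinases and blocks their activation, and it was the member with the lowest ratio (gene 54206, chromosome 1, 8011725 to 8026309). It had 5215 counts in the library labelled CIC knockdown and 4448 in control, a ratio of 0.8 (0.768 to 0.832), with 22.3 TPM under the knockdown label and 26.9 TPM in control. That ratio stood at the 9.69th percentile of all genes with at least 100 counts. The main transcript NM_018948 had 3366 counts under the knockdown label and 2854 in control, a ratio of 0.804 (0.765 to 0.846), and XM_006710697 had 1214 under the knockdown label and 1114 in control, a ratio of 0.744 (0.685 to 0.807). The minor transcript XM_005263477, named after its value was seen, was higher, with 244 counts under the knockdown label and 68 in control, a ratio of 2.41 (1.86 to 3.25).

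Around the 9 genes, 85 others were listed, which were other ligands, genes of ligand release, receptor turnover, adaptors and downstream signalling, and the chromosome 17 neighbours of ERBB2, GRB7 being in 2 of the lists. Of the 77 with at least 20 counts, 30 were higher, 17 lower and 30 overlapped a ratio of 1. The background over all 17677 genes with at least 20 counts was 29.8% higher and 25.3% lower.

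Other ligand genes were scarce. Of 7 listed (BTC, EREG, EPGN and NRG1 to NRG4), 3 had at least 20 counts, and together the 7 summed to 0.797 TPM under the knockdown label and 0.814 TPM in control. NRG3, which binds ERBB4, had 116 counts under the knockdown label and 92 in control, a ratio of 0.862 (0.648 to 1.14). BTC, which encodes betacellulin, was the 1 that was higher, with 20 counts in the library labelled CIC knockdown and 2 in control, a ratio of 4.21 (1.66 to 60.2); its log2 ratio was 2.08 from counts and 0.98 from TPM with the pseudocount. BTC fell short of the naming rule and was chosen after its value was seen. NRG1, the best-known ligand of ERBB3 and ERBB4, had 0 counts in both libraries.

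Genes that release ligands from the cell surface went both ways, with 2 of 6 higher and 2 lower. Of all genes with at least 20 counts, 29.8% were higher and 25.3% lower. ADAM17, the main sheddase of TGFA, AREG and HBEGF, had 6053 counts under the knockdown label and 4171 in control, a ratio of 0.99 (0.951 to 1.03), and was named after its value was seen. ADAM10, the main sheddase of EGF, stood at a ratio of 0.979 (0.946 to 1.01). Its log2 ratio was -0.03 from counts and 0.3 from TPM with the pseudocount. Of the iRhoms, which carry ADAM17 to the surface, RHBDF2 stood at a ratio of 1.38 (1.17 to 1.63) and RHBDF1 at 0.911 (0.867 to 0.957). The rhomboid protease RHBDL2 had 88 counts under the knockdown label and 34 in control, a ratio of 1.73 (1.18 to 2.71). TIMP3, which inhibits ADAM17, had 1391 counts under the knockdown label and 1611 in control, a ratio of 0.589 (0.548 to 0.633).

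Genes that stabilise receptors or mark them for destruction had a median log2 ratio of -0.01, with 6 of 19 higher and 5 lower. The shares over all genes with at least 20 counts were 29.8% and 25.3%. CBL, the ubiquitin ligase that sends EGFR to lysosomes, had 1668 counts under the knockdown label and 767 in control, a ratio of 1.48 (1.36 to 1.62), while its relative CBLC had 72 counts under the knockdown label and 76 in control, a ratio of 0.654 (0.462 to 0.904). LRIG1, a membrane protein that lowers ERBB receptors, stood at 1.16 (1.09 to 1.24) and the related LRIG2 at 0.827 (0.778 to 0.879). HSP90AB1, a chaperone of ERBB2, stood at 1.21 (1.2 to 1.23).

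Among adaptors, 5 of 14 were higher and 3 lower, against 29.8% and 25.3% of all genes with at least 20 counts. Their median log2 ratio was 0.02. STAT5A, a transcription factor that ERBB4 activates, had 187 counts under the knockdown label and 97 in control, a ratio of 1.31 (1.02 to 1.7), and STAT5B stood at 1.1 (1.01 to 1.19). EPS8, an EGFR substrate, stood at 1.17 (1.12 to 1.21). SOS2, a Ras activator, and GAB1, a docking protein, stood at 0.865 (0.827 to 0.906) and 0.888 (0.833 to 0.948). In the PI3K and AKT list, 5 of 13 stood above 1 and 4 below, against the same shares over all genes, around a median of -0.02. The regulatory subunit genes PIK3R2 and PIK3R3 stood at 1.33 (1.24 to 1.42) and 1.14 (1.11 to 1.17), and the catalytic subunit genes PIK3CB and PIK3CA at 0.767 (0.72 to 0.817) and 0.91 (0.869 to 0.953). For PIK3CA the log2 ratio was -0.14 from counts and -0.55 from TPM with the pseudocount. PDK1, which in this table is the pyruvate dehydrogenase kinase and not PDPK1 of the AKT pathway, stood at 0.836 (0.78 to 0.896). PDK1 is nevertheless counted among the 13 measured, among the 4 below and in the median of this list.

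In the ERK-responsive list 9 of 17 stood above 1 and 3 below, against 29.8% and 25.3% of all genes with at least 20 counts. The median log2 ratio was 0.28, against 0.02 over all such genes. Several of its members are known CIC targets, and the list was written with earlier results of these libraries known, so its direction is not independent evidence. ETV5 and ETV4, ETS factors that CIC represses, stood at ratios of 4.93 (4.24 to 5.86) and 4.62 (3.71 to 6.0). The feedback inhibitor genes SPRY4 and SPRED1 stood at 3.92 (2.84 to 5.94) and 2.06 (1.88 to 2.27), while SPRY1 had 154 counts under the knockdown label and 178 in control, a ratio of 0.594 (0.472 to 0.736). For SPRY4 the log2 ratio was 1.97 from counts and 1.31 from TPM with the pseudocount. By counts, ETV5, ETV4 and SPRY4 lay above EGF, which had the highest ratio of the 9 genes at 1.99 (1.61 to 2.51). The SPRED1 interval lay inside that of EGF, so their order was not resolved. From TPM with the pseudocount, the log2 ratio of EGF was 1.38, above SPRY4 and SPRED1 (1.04). ETV5 (2.23) and ETV4 (2.19) stayed above EGF.

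**Figure D4:**
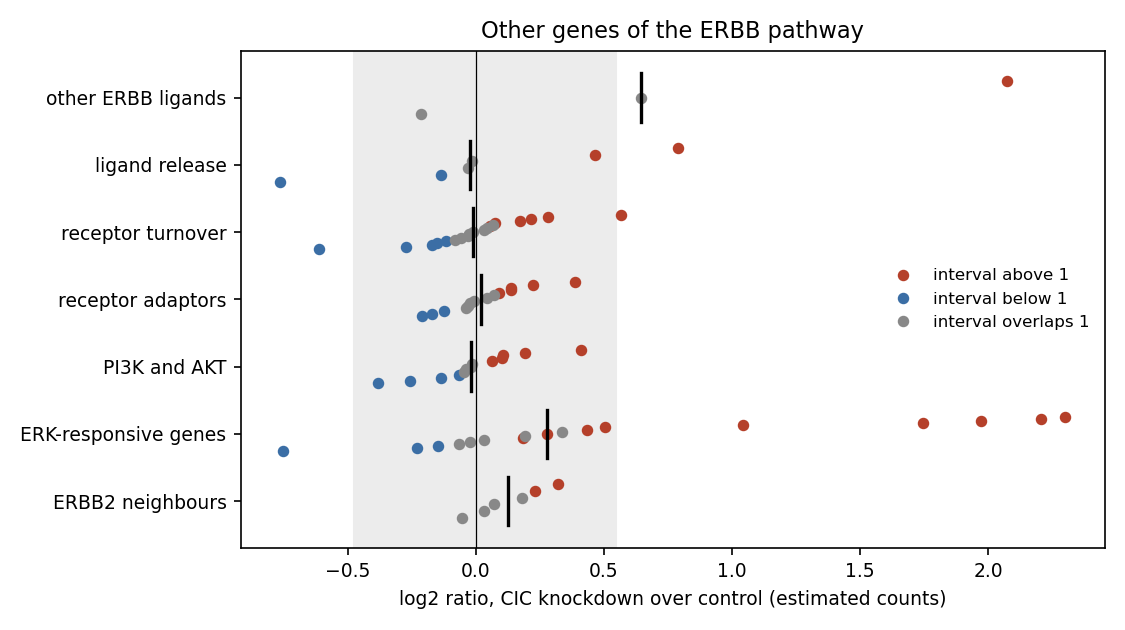
Log2 ratio of the library labelled CIC knockdown over control for other ERBB pathway genes with at least 20 counts, by list; each point is 1 gene, coloured by its counting interval, black lines are list medians, and the grey band spans the 5th to 95th percentiles of all genes with at least 100 counts. Medians of the release, turnover, adaptor and PI3K lists lie between -0.02 and 0.02, and that of the ERK-responsive list lies at 0.28.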

How the data were processed

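RNA of 2 samples was measured, 1 library from CIC knockdown and 1 from control secondary mammospheres of T47D. Tools named in the submitters' processing notes are StringTie, HISAT2 and Trimmomatic, with GRCh38 (hg38) as the build and no versions. Per the file headers, the authors deposited read counts, FPKM and TPM for each gene and transcript. The deposited counts are estimated counts, whole numbers already, and lie close to FPKM times length times a constant per library. FPKM and TPM were scaled by the authors per transcript length and library, per the file headers. The gene table with assembled transcripts was used where it is named. One further table, which joins annotated and assembled transcripts, was not used. Columns marked KD were matched to the CIC knockdown sample by title and those marked C to the other sample; 0 sample columns were left out.

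TMM factors were 1.00 for CIC knockdown and 0.995 for control (edgeR 4.0.16, R 4.3.3), fitted on all genes. Log2 ratios followed edgeR's formula with 2 as prior count. Intervals are exact Clopper-Pearson 95% intervals given the summed count (SciPy 1.17.1) and cover counting error only. They leave out the spread between samples and take counts as independent, which PCR copies are not. Poisson intervals of TPM were scaled from the counts. Ratios and intervals were tested on simulated independent Poisson counts, which hold no spread between samples and no error of dividing reads among transcripts. No test or p-value was possible with 1 library per group.

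Members and lists were chosen with earlier results of these data known. All 9 members were named; lists named up to 5 genes with the largest absolute log2 ratio among those with at least 50 counts, and transcripts were named at a share of at least 10%; any other was chosen after its value was seen. List genes were matched through the RefSeq gene table by gene ID. Alternatives were other scalings (DESeq2 1.42.0 size factors, totals), TPM and FPKM, prior counts, count minimums, halved counts, the table with assembled transcripts, and single transcripts. One marker gene is not reported here.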

Additional observations from a re-analysis of the deposited data

Results flagged for a closer look

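Outside the annotated transcripts, the deposited list of assembled splice variants held 1 entry for the 9 genes, and it belonged to ERBB3. It was picked out because its signal under the knockdown label, that is, in the library labelled CIC knockdown, was 17405 counts and stood above the 5814 counts in control, a ratio of 2.04 (1.98 to 2.1). The variant (chromosome 12, 56079415 to 56103507, plus strand, 6105 bases, 29 exons) begins upstream of the ERBB3 start in the deposited gene table, 56080025, and joins 56079934 to 56080197. In GENCODE, where the matching transcript begins at 56079861, both positions lie inside exon 1. Its share of ERBB3 counts in the table with assembled transcripts was 70.5% under the knockdown label and 34.8% in control. The 2 annotated transcripts there held 7290 counts under the knockdown label and 10913 in control, a ratio of 0.456 (0.442 to 0.469), while the whole gene had 24695 counts under the knockdown label and 16727 in control, a ratio of 1.02 (0.997 to 1.04). The whole-gene ratio used library sizes from the table with assembled transcripts. Ratios of the variant and of the 2 annotated transcripts used those from annotated genes, so they are not on the same scale. ERBB3 had 70.8 TPM under the knockdown label and 83.6 in control in that table, against 75.3 TPM under the knockdown label and 74.2 TPM in control in the table of annotated transcripts. How far the division of reads between these variants made the difference was not tested.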

How the results depend on the processing

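With 1 library per group, no replicate could be left out. No paired analysis was possible because each group has 1 sample. The count of all genes past 2-fold, 293, was 444 in the table with assembled transcripts, 1099 with a minimum of 20 counts and 2288 with none; it lay between 248 and 299 in the other alternatives. ERBB3 took 69.6% of receptor TPM under the knockdown label and 72.4% in control in the table with assembled transcripts. Members with an interval off 1 numbered 4 and not 5 in that table and from halved counts, where the ERBB3 interval overlapped 1. Under other scalings, another prior count, TPM, FPKM, halved counts or the counts of the assembled table, the log2 ratio changed sign for EGFR, which ran from -0.04 to 0.55, and for no other member; EGF ran from 0.99 to 1.38. By TPM of the assembled table ERBB3 also changed direction, to a ratio of 0.847. The median of the ligand release list, -0.02, was 0.14 in TPM. Parts of a gene's transcripts moved values most. EGF stood at -1.82 both from NM transcripts alone and from its most abundant transcript, ERBB4 at 1.07 and TGFA at -0.065 from theirs, all opposite to the gene. EGFR stood at -7.76 and ERBB2 at -2.74 from their most abundant transcript, and ERBB2 at 1.36 from NM transcripts alone, while the gene ratios of both overlapped 1. Those alternatives keep a part of the gene's counts by construction. AREG, HBEGF and EGF, with under 350 counts each, were limited most by depth.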

Other observations

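A pair of annotated RNAs named after EGFR and TGFA had few or no counts. EGFR-AS1, an antisense RNA of EGFR, had 0 counts in both libraries, and TGFA-IT1, transcribed from an intron of TGFA, had 1 in the library labelled CIC knockdown and 3 in control. Within 50000 bases of the 9 genes, 1 assembled locus outside annotated genes was listed, near ERRFI1, with 43 counts under the knockdown label and 62 in control.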
